A study of Triticum aestivum with 96 samples.

Results

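A pair of cell wall probesets with different courses through cold was followed in crowns of bread wheat (Triticum aestivum): Ta.20519.1.S1_at, named by the study an extensin-like, cortical cell-delineating protein, and Ta.13239.1.S1_at, named a glycine-rich cell wall protein homolog. They are 2 of the 61179 probesets other than controls on the Affymetrix Wheat GeneChip. They were chosen by their measured fold-change in winter Norstar, among probesets whose signals varied with line, duration of cold and the interaction of both. Their levels and differences are therefore given as a description, with standard errors and 95% intervals and with no test.

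The crown, the short stem base from which tillers and roots grow, holds the shoot apex. Winter Norstar carries the recessive vrn-A1 allele of the vernalization gene of the A genome, and spring Manitou carries the dominant Vrn-A1 allele. Spring Norstar is Norstar into which the Manitou allele Vrn-A1 was crossed, and winter Manitou is Manitou with the Norstar allele vrn-A1. All 4 lines carry vrn-B1 and vrn-D1. The near-isogenic lines came from repeated backcrossing, so a segment around the locus was exchanged and not the gene alone. Seedlings at the 3-leaf stage were held at 6 °C for 2, 14, 21, 35, 42, 56 or 70 days, and untreated seedlings (0 days) were the control. The 4 lines and 8 times made 32 groups of 3 samples, each sample a pool of crowns on an array of its own, for 96 arrays in all. Because a crown holds many cell types, fewer cells of a type and less RNA per cell cannot be told apart in these samples.

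Plant cell walls contain structural proteins beside cellulose, xyloglucan, pectin and lignin. Extensins are hydroxyproline-rich glycoproteins that are cross-linked into a network in the wall, and glycine-rich proteins are another structural class, often found in the walls of vascular tissue. Cortical cell-delineating proteins take their name from maize, where the transcript marks young cortical cells of the root, and they end in the cysteine pattern of lipid transfer proteins. The descriptions at hand did not bear out both names in full. The best matches given for Ta.20519.1.S1_at were a rice cortical cell-delineating protein and the rice locus LOC_Os03g01300.1, of the protease inhibitor, seed storage and lipid transfer family. For Ta.13239.1.S1_at they were an uncharacterized rice protein and the locus LOC_Os02g43540.1, described as a retrotransposon protein. The words extensin-like and glycine-rich came only from the study's own list, so the probesets are called here by their identifiers.

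The deposited values were log2 signals and ran from 1.92 to 14.7, with array medians between 5.66 and 5.78. Arrays of one group correlated across probesets at 0.971 to 0.996 (median 0.993). A log2 value of 5.15 was taken as the limit of brightness, below which a level is only a bound. Both members passed that limit and were among the 31543 probesets tested, Ta.20519.1.S1_at through the Norstar lines alone. The residual SD was 0.44 for Ta.20519.1.S1_at and 0.30 for Ta.13239.1.S1_at on the log2 scale, above the median of 0.15 over the probesets tested.

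Ta.20519.1.S1_at was dim in untreated crowns and after 2 days in all 4 lines, reached its highest level at 21 days in the Norstar lines, and stood far lower at 35 days. In winter Norstar the 3 log2 signals were 3.15, 2.85 and 2.89 at 0 days and 3.08, 2.98 and 3.00 at 2 days. They were 6.69, 7.27 and 7.14 at 14 days and 9.20, 8.05 and 8.41 at 21 days. All 6 of these later arrays lay above all 6 of the earlier ones. At 35 days the signals were 5.63, 4.08 and 5.24, and at 42 days 5.21, 4.11 and 4.56. They were 5.13, 3.41 and 5.23 at 56 days and 3.79, 2.95 and 4.37 at 70 days. No array from 35 days onward reached the lowest array of 14 or 21 days.

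The mean in winter Norstar went from 2.96 ± 0.16 (SD, n = 3) at 0 days to 8.55 ± 0.59 at 21 days, a log2 difference of 5.59 (SE 0.35, 95% interval 4.90 to 6.28), or 48.2-fold. Arrays of these days did not overlap, as in 23.8% of the probesets tested in winter Norstar and 24.2% in spring Norstar. Since the untreated level was below the brightness limit, the measured fold rests on a dim value, and against the limit itself the level at 21 days was at least 10.6-fold higher. Relative to all probesets other than controls, the signal was brighter than 4.2% of them at 0 days and than 82.2% at 21 days. The level at 35 days, 4.98 ± 0.80, was below the limit, 3.57 under that of 21 days as measured and at least 10.6-fold lower against the limit, without overlap (9.42% of the probesets tested were lower in this way, and 8.55% in spring Norstar). At 70 days it was 3.70 ± 0.72.

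Spring Norstar, which shares the background but carries the spring allele, had its highest level on the same day, with lower levels at 14 and 21 days. Its signals were 2.73, 3.27 and 3.11 at 0 days, 3.05, 2.95 and 3.06 at 2 days, and 4.98, 5.60 and 5.31 at 14 days. At 21 days they were 7.20, 6.94 and 7.15, a mean of 7.09 ± 0.14, and at 35 days 4.46, 3.63 and 3.67. The 21-day mean exceeded that of 0 days by 4.06 (SE 0.35, 95% interval 3.37 to 4.75), or 16.7-fold as measured and at least 3.84-fold against the brightness limit, and the mean at 35 days, below the limit, was 3.18 lower than at 21 days as measured and again at least 3.84-fold lower against it. The arrays then stood at 4.33, 3.73 and 3.90 at 42 days, 5.86, 4.27 and 5.67 at 56 days, and 5.17, 4.01 and 5.15 at 70 days. The last 2 of these times had higher means, 5.26 ± 0.87 and 4.78 ± 0.66, than 35 days, 3.92 ± 0.47, but the arrays overlapped.

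In the Manitou lines no group mean of Ta.20519.1.S1_at passed the limit. Winter Manitou ran from 2.96 at 2 days to 4.16 ± 0.08 at 21 days, where its arrays read 4.11, 4.12 and 4.25. Spring Manitou ran from 2.99 at 2 days to 4.19 ± 0.76 at 56 days, with 3.75 ± 0.25 at 21 days. At 21 days winter Norstar stood above winter Manitou by 4.39 (95% interval 3.70 to 5.08) and spring Norstar above spring Manitou by 3.34 (2.65 to 4.03), with no overlap of arrays. Against the brightness limit these were again at least 10.6-fold and at least 3.84-fold. Of all probesets tested, 17.2% and 16.4% were higher without overlap in these comparisons.

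The level also differed with growth habit within the Norstar background at 14 and 21 days. Winter Norstar exceeded spring Norstar by 1.74 at 14 days and by 1.46 (95% interval 0.77 to 2.15), or 2.75-fold, at 21 days, in both cases without overlap (8.09% and 11.9% of the probesets tested). At 35 and 42 days the winter means, 4.98 and 4.63, and the spring means, 3.92 and 3.99, were all below the limit. At 56 and 70 days the measured difference was -0.67 and -1.08, with overlapping arrays. Against the limit the former was at least 1.08-fold, and at 70 days both means lay below it, so a change of direction was not shown. Of the variation of Ta.20519.1.S1_at over the 96 arrays, 41.3% lay between days, 22.8% between the Norstar and Manitou backgrounds and 0.078% between winter and spring lines. Measured differences of opposite sign over the days offset each other in the share of habit. The interaction of line and day held 27.9%, and 6.72% lay within groups.

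**Figure D1:**
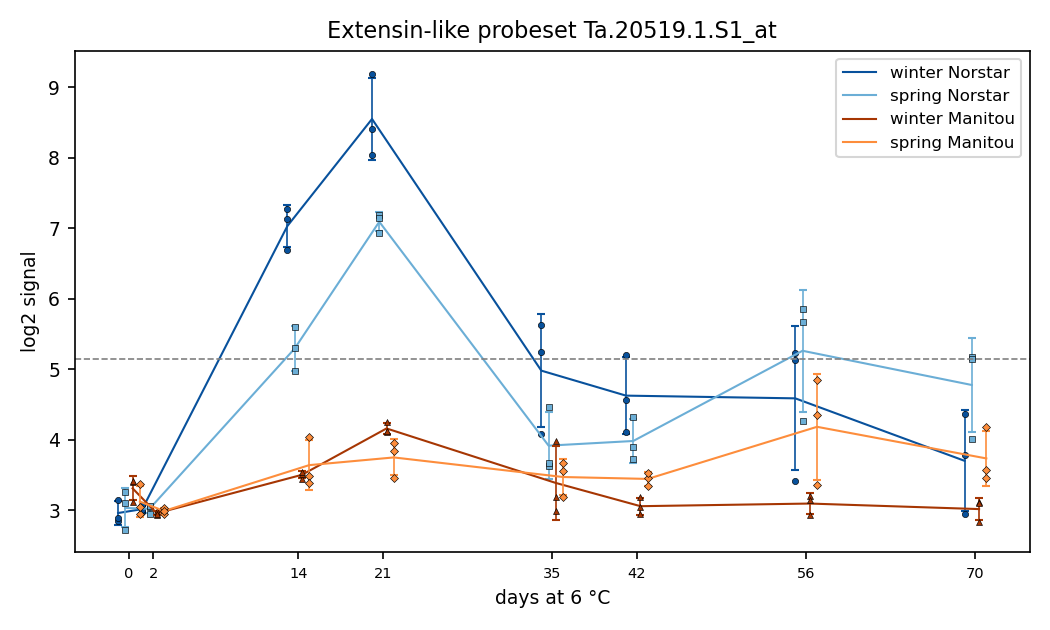
Log2 RMA signal of Ta.20519.1.S1_at (vertical axis) against days of cold (horizontal axis) in the 4 lines. Points are single arrays, lines join group means, bars are the SD of 3 arrays, and the dashed line is the brightness limit of 5.15. The means peak at 21 days, at 8.55 in winter Norstar and 7.09 in spring Norstar, while no Manitou mean passes the limit.

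Ordered by mean, the 3 highest of the 32 groups were winter Norstar at 21 days (8.55), spring Norstar at 21 days (7.09) and winter Norstar at 14 days (7.03), and the fourth was spring Norstar at 14 days (5.30). Of the 31 pairs of neighbours in that order, 29 had overlapping arrays. The 2 without overlap were winter above spring Norstar at 21 days, and winter above spring Norstar at 14 days. The spread within groups widened late: over 35 to 70 days replicate 2 was the lowest of the 3 arrays in 13 of 16 groups, on average 0.45 below its group mean. For Ta.13239.1.S1_at it was lowest in 7 of 16, and replicate 2 was least like its group across all probesets in 3 of 16. The part of that replicate in the late levels was not tested.

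Ta.13239.1.S1_at differed from Ta.20519.1.S1_at in timing and in the lines that showed it: it was high after 2 days in all 4 lines and stayed high to the end. In winter Norstar the signals were 5.22, 4.84 and 5.12 at 0 days and 9.44, 9.79 and 9.84 at 2 days. In spring Norstar they were 4.69, 4.66 and 5.17, then 9.44, 9.59 and 9.75. In winter Manitou they were 4.88, 5.05 and 5.24, then 9.33, 9.40 and 9.63. In spring Manitou, the line with the highest untreated level, they were 4.97, 5.76 and 5.89, then 9.00, 9.38 and 9.41. The difference was 4.63, 4.75, 4.40 and 3.72 in these lines (SE 0.24 each), or 24.8-, 27.0-, 21.1- and 13.2-fold.

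Untreated means of 5.06, 4.84 and 5.06 in winter Norstar, spring Norstar and winter Manitou were just below the limit of 5.15, so the folds in these lines were at least 23.2, 21.7 and 19.7. No array at 2 days overlapped one at 0 days in any line, as in 28.5% and 26.1% of the probesets tested in winter and spring Norstar and 29.4% and 26.1% in winter and spring Manitou. By the size of the 2-day difference Ta.13239.1.S1_at ranked 7th, 10th, 8th and 19th of 31543 in winter Norstar, spring Norstar, winter Manitou and spring Manitou. Because the probeset was chosen by its fold-change in winter Norstar, a high place was partly built in. The 18 leaf markers, probesets of the photosynthetic apparatus, moved between the same days: their summed linear signal per array was 42599 to 61369 at 0 days and 23087 to 32226 at 2 days. In winter Norstar, spring Norstar, winter Manitou and spring Manitou 6, 5, 11 and 8 of them fell, against 2.91%, 2.84%, 3.61% and 3.35% of all probesets tested, and at most 2 lay below the brightness limit in any group. Their part in the 2-day difference of Ta.13239.1.S1_at was not tested.

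**Figure D2:**
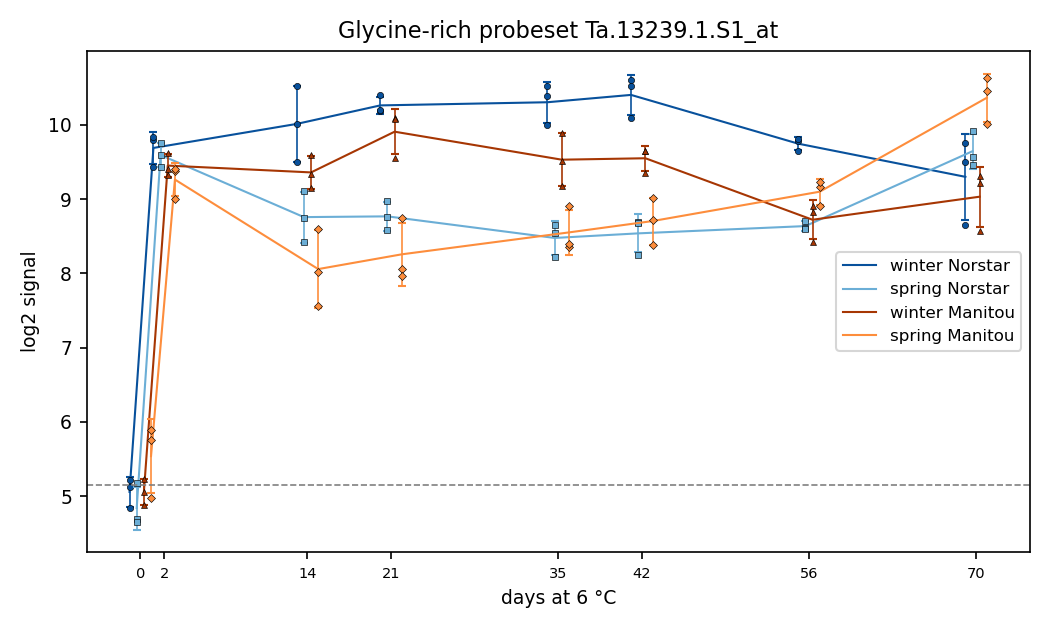
Log2 RMA signal of Ta.13239.1.S1_at (vertical axis) against days of cold (horizontal axis) in the 4 lines. Points are single arrays, lines join group means, bars are the SD of 3 arrays, and the dashed line is the brightness limit of 5.15. All lines stand between 9.26 and 9.69 at 2 days, after which winter Norstar stays at 9.30 or above and winter Manitou reaches 8.72 at 56 days, while the spring lines are lower by 14 days and end at 9.65 and 10.37.

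After 2 days the winter and spring lines parted. In winter Norstar the means were 10.01 ± 0.51 at 14 days, 10.26 ± 0.12 at 21, 10.30 ± 0.28 at 35 and 10.40 ± 0.27 at 42 days, then 9.75 ± 0.09 at 56 and 9.30 ± 0.58 at 70 days. The arrays at 42 days read 10.10, 10.52 and 10.60. The signal there was brighter than 94.1% of probesets, against 40.6% in untreated crowns. Winter Manitou followed with 9.36 ± 0.22 at 14 days, 9.91 ± 0.30 at 21, 9.53 ± 0.36 at 35, 9.55 ± 0.17 at 42, 8.72 ± 0.26 at 56 and 9.03 ± 0.40 at 70 days.

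The spring lines dipped below their 2-day level. At 70 days spring Norstar was back near it, 9.65 against 9.59 with overlapping arrays, and spring Manitou stood above it, 10.37 against 9.26. Spring Norstar had means of 8.76 ± 0.34 at 14 days, 8.77 ± 0.19 at 21, 8.48 ± 0.22 at 35, 8.54 ± 0.26 at 42 and 8.64 ± 0.06 at 56 days, with 9.65 ± 0.24 at 70 days. Spring Manitou was lowest at 14 days, 8.06 ± 0.52, and passed through 8.26 ± 0.42 at 21, 8.55 ± 0.31 at 35, 8.70 ± 0.32 at 42 and 9.10 ± 0.17 at 56 days. At 70 days its arrays read 10.01, 10.45 and 10.64, a mean of 10.37 ± 0.33 that no array of 14 to 56 days reached.

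The winter line stood above the spring line in both backgrounds through the middle of the course. Winter Norstar exceeded spring Norstar by 1.25 at 14 days, 1.49 at 21, 1.83 at 35 and 1.86 at 42 days (SE 0.24 each), and arrays did not overlap. Winter Manitou exceeded spring Manitou by 1.30, 1.65, 0.98 and 0.85 at these days, also without overlap. The difference at 21 days was 2.80-fold in the Norstar and 3.14-fold in the Manitou background, where 11.9% and 9.21% of the probesets tested were higher without overlap. These shares were 8.09% and 8.75% at 14 days, 16.5% and 11.7% at 35 days, and 13% and 8.64% at 42 days. At 56 days the difference was 1.11 in the Norstar background, and -0.38 with overlapping arrays in the Manitou background. At 70 days the sign was the opposite: the difference was -1.33 in the Manitou background, and -0.35 with overlapping arrays in the Norstar background. From 21 to 70 days the mean moved by -0.96 in winter Norstar and -0.88 in winter Manitou, and by 0.88 in spring Norstar and 2.11 in spring Manitou.

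Background mattered less for Ta.13239.1.S1_at than for Ta.20519.1.S1_at. At 21 days the Norstar minus Manitou difference was 0.35 (SE 0.24) between winter lines and 0.51 between spring lines. It was larger on some other days and not of one sign. At 56 days the winter means were 9.75 in Norstar and 8.72 in Manitou, and at 70 days the spring means were 9.65 in Norstar and 10.37 in Manitou. Such opposite differences offset each other in the share of background below. Days held 82.2% of the variation of Ta.13239.1.S1_at, background 0.54%, habit 4.41%, the interaction of line and day 9.28% and the spread within groups 2.63%. Ordered by mean, all 28 treated groups stood above all 4 untreated ones, and the gap between 8.06 in spring Manitou at 14 days and 5.54 in spring Manitou at 0 days was the 1 pair of neighbours, of 31, whose arrays did not overlap. Across the 32 group means the 2 members correlated at r = 0.355.

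Relatives of Ta.20519.1.S1_at were set beside it. They were taken, like the other cell wall probesets below, from the descriptions of probesets that the study had found to vary with line and day together on these same arrays, so their calls are not independent evidence. A probeset was called where limma's moderated test gave a Benjamini-Hochberg adjusted p under 0.01 over the 31543 probesets and the change was at least 2-fold. Ta.18186.1.A1_at, with the same best matches as Ta.20519.1.S1_at, had signals of 3.62, 3.08 and 2.82 at 2 days and 6.83, 5.57 and 6.04 at 21 days in winter Norstar. In spring Norstar its 21-day arrays read 6.19, 6.21 and 6.36. It passed the brightness limit, and so entered the tests, through these 21-day groups alone, so some difference from them was built into its selection. Its differences between these groups and dimmer ones are therefore given without p-values. As measured it rose from 2 to 21 days by 2.97 (SE 0.26) in winter Norstar and by 2.84 in spring Norstar. Against the limit this was at least 1.99-fold and at least 2.15-fold.

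The same probeset fell by 2.32 and by 2.91 from 21 to 35 days in winter and spring Norstar, to levels below the limit, again at least 1.99-fold and 2.15-fold. At 21 days it was 2.06 higher in winter Norstar than in winter Manitou and 2.12 higher in spring Norstar than in spring Manitou, as measured. Against the limit these too were at least 1.99-fold and 2.15-fold. Between winter and spring Norstar it differed by -0.11 (limma adjusted p = 0.95), whereas Ta.20519.1.S1_at stood 1.46 apart. In winter and spring Manitou its means were 2.83 and 3.03 at 2 days and 4.09 and 4.13 at 21 days. All its group means there, 2.68 to 4.30, were below the limit, although limma called both differences.

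Ta.14492.2.S1_at, matched to the same rice locus, behaved differently. It was bright before cold, 8.05 in winter and 7.73 in spring Norstar, and in winter Norstar it fell by 1.36 at 2 days (limma adjusted p = 6.8e-07). In spring Norstar the 2-day change was -0.95 (adjusted p = 4e-04), short of 2-fold. It rose by 1.02 from 2 to 21 days in spring Norstar (adjusted p = 0.00084), where it reached 7.81 and was 1.01 higher than in spring Manitou (adjusted p = 0.00038). Each of these calls rested on single arrays: the first was -0.92 without replicate 3 (adjusted p = 0.0062), the second 1.17 without replicate 1 (adjusted p = 0.017) and 0.88 without replicate 3 (adjusted p = 0.044), and the third 1.02 without replicate 1 (adjusted p = 0.025) and 1.00 without replicate 2 (adjusted p = 0.0027). In the Manitou lines its means stayed between 6.15 and 6.81. Probe sequences were not used here, so signal shared between these related probesets was not tested.

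**Figure D3:**
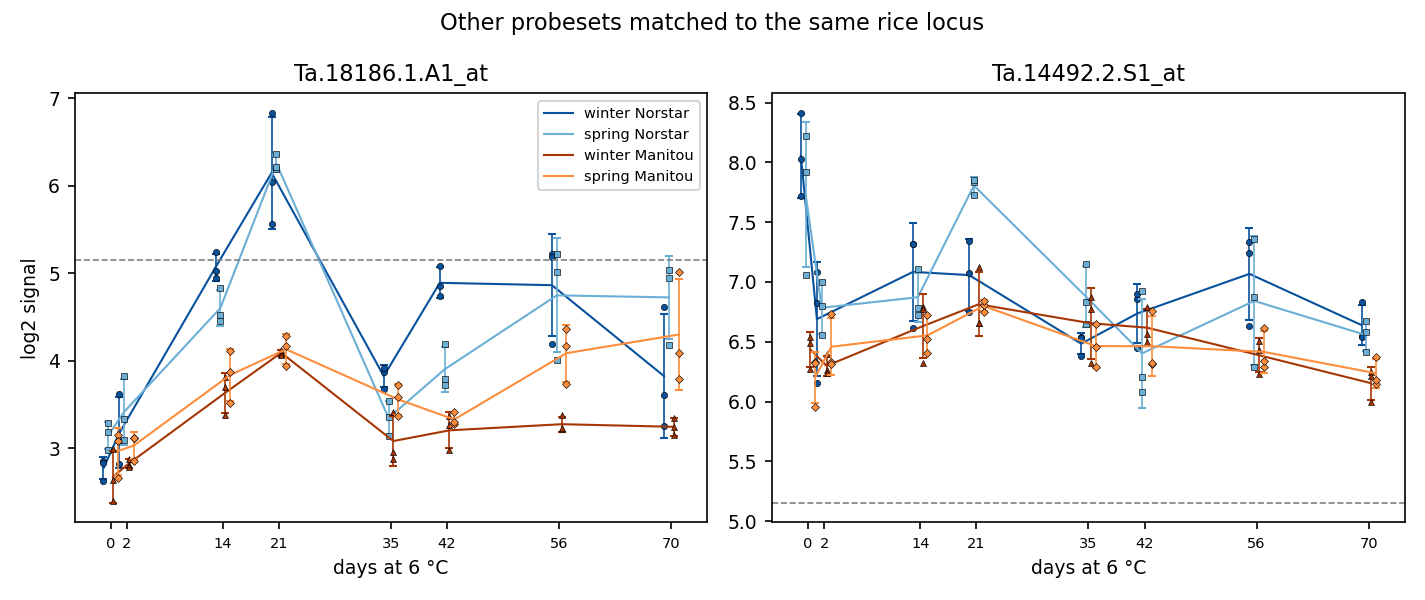
Log2 RMA signals of Ta.18186.1.A1_at and Ta.14492.2.S1_at (vertical axes) against days of cold (horizontal axes) in the 4 lines. Points are arrays, lines group means, bars the SD of 3 arrays, and the dashed line is the limit of 5.15. Ta.18186.1.A1_at peaks at 21 days in the Norstar lines, at 6.15 and 6.25, and Ta.14492.2.S1_at is brightest at 0 days in winter Norstar, at 8.05.

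The 5 probesets described as glycine-rich had correlations with Ta.13239.1.S1_at from -0.651 to 0.441 over the 32 group means. At 2 days 1 of them was called higher, in 1 line: Ta.6174.1.S1_at rose from 7.18 to 8.43, by 1.25, in winter Manitou (limma adjusted p = 0.0078), and without replicate 1 or 3 the adjusted p was 0.13 or 0.028. Its differences in the other lines, 1.07 in winter Norstar, 1.10 in spring Norstar and 1.02 in spring Manitou, did not pass (adjusted p = 0.024, 0.022 and 0.032). Ta.19469.1.A1_a_at, the brightest of them, moved the other way at 2 days. Its arrays in winter Norstar were 11.7, 11.6 and 11.9 at 0 days and 9.84, 9.98 and 10.1 at 2 days. It fell by 1.78 (winter Norstar), 1.76 (spring Norstar), 1.36 (winter Manitou) and 1.08 (spring Manitou), with no array of 2 days above one of 0 days (SE 0.16, limma adjusted p = 1.5e-14, 2.1e-14, 1.3e-10 and 9.2e-08). The last of these was -0.99 without replicate 2, just short of 2-fold. From 2 to 21 days it rose by 1.26 in spring Norstar (adjusted p = 3.3e-08).

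Ta.28983.1.S1_at and Ta.28983.2.S1_at, matched to 1 rice locus (LOC_Os02g37490.1), differed with habit in part of the groups. At 21 days Ta.28983.1.S1_at had means of 8.29 and 7.24 in winter and spring Norstar, and of 7.28 and 5.20 in winter and spring Manitou. The Manitou difference of habit was 2.08 (limma adjusted p = 1.9e-07) and the Norstar one 1.05 (adjusted p = 0.011), which missed the threshold. Like Ta.13239.1.S1_at, it moved in opposite directions in the Manitou lines from 21 to 70 days: it fell by 1.38 in winter Manitou (adjusted p = 2.3e-05) to 5.90 and rose by 1.39 in spring Manitou (adjusted p = 1.2e-05) to 6.59. The former was -0.96 without replicate 3 and the latter had an adjusted p of 0.01 without replicate 1, and neither was then called. Ta.28983.2.S1_at passed the brightness limit, and so entered the tests, through winter Norstar alone, where its arrays read 3.45, 3.24 and 3.28 at 0 days and 6.45, 6.66 and 5.96 at 35 days. As measured it was 1.76 higher in winter than in spring Norstar at 21 days and 2.56 higher at 42 days. No p-values are given for these differences, because the probeset was selected through winter Norstar. Against the limit, under which the spring Norstar values lay, they were at least 1.71-fold and at least 1.99-fold.

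The other pair, Ta.27399.3.S1_at and Ta.6174.1.S1_at, also shared a rice locus (LOC_Os02g37480.1) and was higher in the Manitou lines before cold. Ta.27399.3.S1_at stayed between 3.76 and 4.18 in the Norstar lines, below the limit, while in winter and spring Manitou it was 7.10 and 7.15 at 2 days. It entered the tests through the Manitou lines alone, with its highest means at 2 days, so a high level there was built into its selection. As measured it fell by 1.91 and 2.24 to 21 days there, and limma's call of the former was lost without replicate 1. In spring Manitou it rose again by 1.56 from 21 to 70 days. No p-values are given for these differences, because the probeset was selected through the Manitou lines. The spring Manitou level at 21 days, 4.91, was below the limit. Against the limit the fall and the rise in this line were at least 3.98-fold and at least 2.49-fold. Ta.6174.1.S1_at rose by 2.25 from 2 to 14 days in winter Norstar, to 8.51 (limma adjusted p = 5.2e-06). In winter Manitou it fell by 2.56 from 21 to 35 days (adjusted p = 3.2e-05, or 0.076 without replicate 1).

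**Figure D4:**
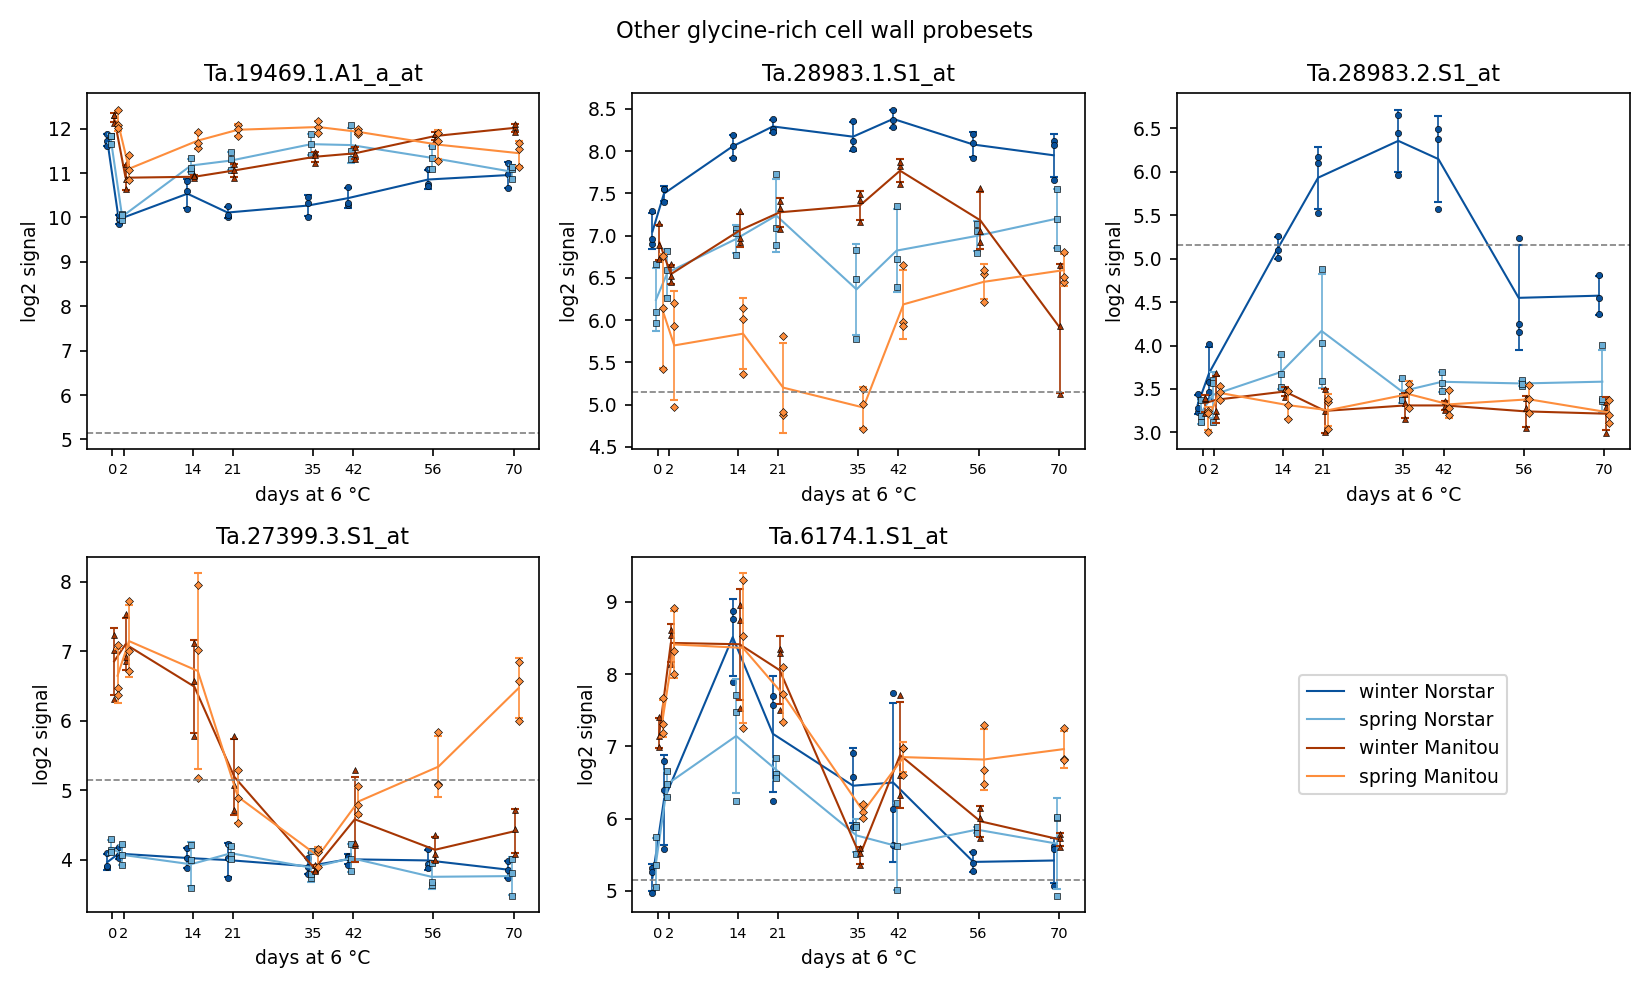
Log2 RMA signals of the 5 probesets described as glycine-rich (vertical axes) against days of cold (horizontal axes) in the 4 lines. Points are arrays, lines group means, bars the SD of 3 arrays, and the dashed line is the limit of 5.15. At 2 days 1 is called higher in 1 line, Ta.6174.1.S1_at by 1.25 in winter Manitou, and Ta.19469.1.A1_a_at is lower at 2 than at 0 days in every line.

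The wider list held 58 cell wall probesets, 57 of them tested, with the relatives above among them. At 2 days 2 rose and 6 fell in winter Norstar, against 2.03% and 2.91% of all probesets called higher and lower. The counts were 1 and 5 in spring Norstar (2.42% and 2.84% of all), 4 and 4 in winter Manitou (2.76% and 3.61%), and 2 and 4 in spring Manitou (2.46% and 3.35%). So the step of Ta.13239.1.S1_at was not the rule among them: the median change was -0.11 in both Norstar lines, against 0.03 and 0.02 over all probesets tested. In winter and spring Manitou it was -0.0035 and -0.013, against 0.04 and 0.03. Ta.29434.1.A1_at, a pectinesterase inhibitor, of a class that restrains the removal of methyl groups from pectin, rose in all 4 lines, from 1.10 in winter Norstar (limma adjusted p = 6.6e-05) to 1.44 in spring Manitou (adjusted p = 2.9e-07). Ta.25315.1.A1_at, COBRA-like, of a family that acts in the orientation of cellulose, rose by 1.35 in winter and 1.24 in spring Manitou. Ta.21297.1.S1_at, a beta-glucanase, rose by 1.48 in winter Norstar (adjusted p = 0.00052, or 0.025 without replicate 1). Changes are of measured signals, also where 1 of the levels lay below the limit.

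Among those that fell at 2 days, Ta.11506.1.S1_a_at, a dirigent protein, of a family that guides the coupling of phenols into lignans, fell by 2.59 and 2.32 in winter and spring Norstar and by 1.67 and 1.20 in winter and spring Manitou (limma adjusted p from 3.4e-16 to 3.8e-06), the last being -0.91 without replicate 3. Ta.3665.1.S1_at, also dirigent, fell by 1.26 in spring Norstar. Ta.11294.1.A1_at, a laccase, of the enzymes that oxidize lignin precursors, fell by 1.78 in winter and 1.83 in spring Manitou. Ta.14995.2.S1_a_at, a xyloglucan endotransglucosylase/hydrolase of glycosyl hydrolase family 16, whose members cut and rejoin xyloglucan, fell by 1.38 in winter and 1.53 in spring Manitou, the former with an adjusted p of 0.019 without replicate 2.

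From 2 to 21 days, the interval of the high point of Ta.20519.1.S1_at, 6 of the 57 rose and 3 fell in winter Norstar (1.01% and 0.292% of all probesets). The numbers were 6 and 2 in spring Norstar (1.07% and 0.143% of all), 3 and 6 in winter Manitou (0.729% and 0.212%), and 3 and 7 in spring Manitou (0.542% and 0.327%). Medians lay between -0.09 and 0.12. Ta.14995.2.S1_a_at rose in all 4 lines: by 2.81 in winter Norstar (SE 0.30, limma adjusted p = 1.7e-10), 1.93 in spring Norstar, and 1.36 and 1.16 (adjusted p = 0.0094) in the winter and spring forms of Manitou. In winter Norstar 4 of the 5 probesets of glycosyl hydrolase family 16 rose. Besides Ta.14995.2.S1_a_at these were Ta.13337.1.S1_at, Ta.13337.2.S1_at and Ta.10197.1.S1_at, with changes from 1.09 to 1.87. The class was singled out, and these probesets named, after their values were seen. The change of Ta.10197.1.S1_at was 0.88 without replicate 3. Their highest group means, 6.65, 6.68 and 7.62, were not far above the limit, and the names of the first 2 share a cluster number. Among the 20000 brightest probesets 1 list member rose and 3 fell in winter Norstar. Ta.11506.1.S1_a_at, lower at 2 days, rose by 1.56 in spring Norstar, and Ta.21297.1.S1_at rose by 1.68 in winter and 1.38 in spring Manitou. The rises in the Manitou lines rested on single arrays. In winter Manitou Ta.14995.2.S1_a_at had an adjusted p of 0.046 without replicate 1 or 2, and Ta.21297.1.S1_at one of 0.11 or 0.063 without replicate 1 or 3. In spring Manitou Ta.14995.2.S1_a_at lost its call without any 1 of the 3 replicates (adjusted p from 0.041 to 0.1), and Ta.21297.1.S1_at without replicate 1 or 3 (0.13 and 0.18).

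The probesets that fell from 2 to 21 days were mostly of lignin and lignan formation or proline-rich. Ta.25384.1.S1_at, a dirigent protein, fell by 1.73 in winter Norstar (limma adjusted p = 2.2e-09) and 1.60 in winter Manitou, and Ta.3298.1.S1_at, of the same family, by 1.10 and 1.53. Ta.4048.1.S1_at, a laccase, fell by 1.20 in winter Norstar. Both proline-rich probesets, Ta.3573.3.S1_a_at and Ta.3341.1.S1_at, fell in spring Norstar, by 1.63 (adjusted p = 3.2e-14) and 1.26 (adjusted p = 2e-11), and both also fell in each Manitou line, Ta.3573.3.S1_a_at in winter Manitou by 0.97 and so short of 2-fold without replicate 2. Ta.29434.1.A1_at fell by 1.68 in spring Manitou.

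From 21 to 35 days, the interval of the drop of Ta.20519.1.S1_at, few probesets were called lower, in the cell wall list and among all tested. In winter and spring Norstar 1 of 57 fell, Ta.18186.1.A1_at, which was tested only through its 21-day level in these lines. In winter Manitou 1 fell, Ta.6174.1.S1_at, and limma called 0 in spring Manitou. Its unadjusted p was under 0.05 for 10, 14, 9 and 16 of the 57 in winter Norstar, spring Norstar, winter Manitou and spring Manitou. Over all probesets 0.0444%, 0.0602%, 0.197% and 0.0127% were called lower in winter Norstar, spring Norstar, winter Manitou and spring Manitou.

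At 21 days 8 list probesets were higher and 4 lower in winter Norstar than in winter Manitou (2.24% and 1.68% of all probesets). Between spring Norstar and spring Manitou 5 were higher (2.29% of all). As measured, Ta.14995.2.S1_a_at, Ta.28983.2.S1_at and Ta.18186.1.A1_at differed most in the first comparison, by 2.74, 2.68 and 2.06, and Ta.18186.1.A1_at, Ta.28983.1.S1_at and Ta.14995.2.S1_a_at in the second, by 2.12, 2.04 and 1.65. Ta.28983.2.S1_at and Ta.18186.1.A1_at were tested only through groups where they were high, and their Manitou levels lay under the limit. Against it they differed at least 1.71-fold and 1.99-fold in the first comparison, and Ta.18186.1.A1_at at least 2.15-fold in the second. The lower ones in winter Norstar were led by Ta.11175.1.A1_at, an endoglucanase, at -1.35 (limma adjusted p = 1.2e-07), Ta.27399.3.S1_at at -1.19 (not called without replicate 1 or 3) and Ta.4048.1.S1_at at -1.15. For Ta.27399.3.S1_at, tested only through the Manitou lines, this was at least 1.03-fold against the limit. Between winter and spring Norstar 6 were higher and 7 lower (0.285% and 0.437% of all). Ta.29434.1.A1_at at 1.78, Ta.28983.2.S1_at at 1.76 and Ta.13337.1.S1_at at 1.76 led those that were higher, and Ta.11175.1.A1_at at -1.64, Ta.25384.1.S1_at at -1.49 and Ta.4455.1.A1_at, a laccase, at -1.47 (adjusted p = 0.018 or 0.022 without replicate 1 or 2) led those that were lower. The spring Norstar levels of Ta.28983.2.S1_at, 4.17, and Ta.13337.1.S1_at, 4.49, lay under the limit. Between winter and spring Manitou 2 were higher (0.216% of all), Ta.28983.1.S1_at by 2.08 and Ta.29434.1.A1_at by 1.68. Comparisons that used the same groups are not independent of each other.

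**Figure D5:**
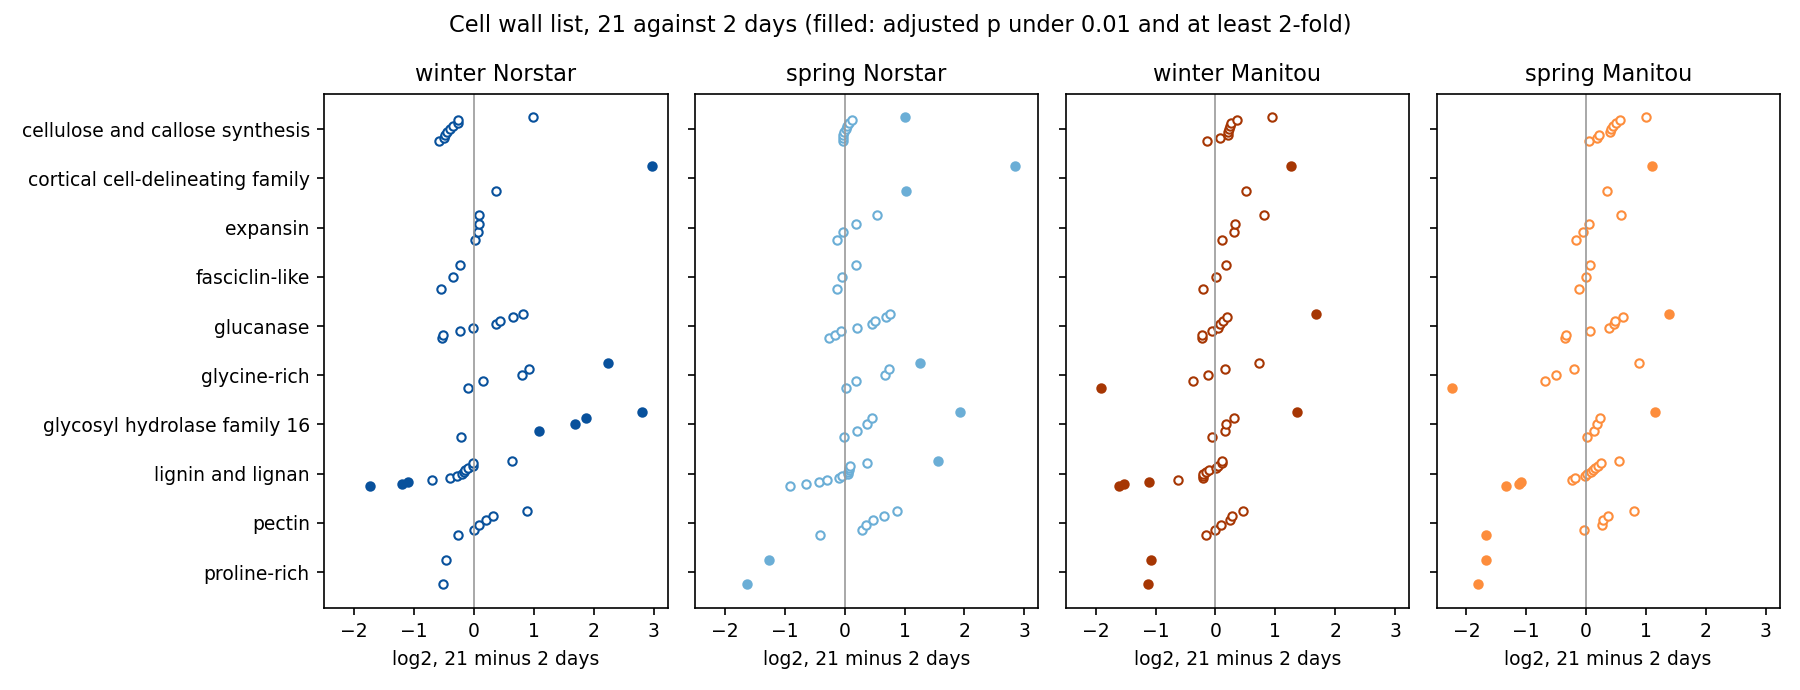
Change in log2 RMA signal from 2 to 21 days of cold (21 minus 2 days, horizontal axis) for the cell wall probesets, by class (vertical axis), in each line. Each point is 1 probeset and filled points passed limma's adjusted p of 0.01 and 2-fold. Called changes run from 2.97 (Ta.18186.1.A1_at, winter Norstar) to -2.24 (Ta.27399.3.S1_at, spring Manitou). Both of these probesets were tested only through groups where they were high.

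The probesets most like each member were sought by Pearson's r over the 32 group means, which share arrays, days and lines and are given without a test. For Ta.20519.1.S1_at the closest was Ta.18186.1.A1_at at 0.908. It was the only one of 31542 at 0.8 or above, and was followed by Ta.24427.1.S1_at (LOC606366) at 0.794, Ta.20221.1.S1_at at 0.793, Ta.23388.1.S1_at, matched to a rice wound and stress protein, at 0.791, and Ta.5216.1.S1_a_at at 0.786. Ta.14492.2.S1_at, of the same rice locus, had an r of 0.355. Ta.13239.1.S1_at had more company, with 305 probesets at 0.8 or above and 46 at 0.9 or above. The closest were Ta.865.2.A1_at at 0.962, Ta.8085.1.S1_at at 0.961, TaAffx.39351.1.A1_at (LOC606321) at 0.952, TaAffx.34169.1.S1_at at 0.951 and Ta.2669.1.S1_a_at, a hexose transporter, at 0.943. The study lists Ta.865.2.A1_at, as a putative arginine/serine-rich protein, and TaAffx.34169.1.S1_at, as a LEA protein, together with Ta.13239.1.S1_at. All were chosen by fold-change in winter Norstar and by interaction, so their likeness is not independent of that choice.

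Lipid transfer proteins share the cysteine pattern of the cortical cell-delineating family, and 20 probesets carried that description. At 2 days 6, 6, 5 and 5 of them rose in winter Norstar, spring Norstar, winter Manitou and spring Manitou, against 2.03% to 2.76% of all probesets. They did not share one course. Over the 32 group means their r with Ta.20519.1.S1_at ran from -0.494 (Ta.1968.1.S1_at) to 0.718 (Ta.1360.2.S1_at), and their r with Ta.13239.1.S1_at from -0.641 (Ta.13754.1.S1_at) to 0.912 (Ta.18487.2.S1_at, described as a wheat cold-responsive protein).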

How the data were processed

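The deposited values are log2 signals: the authors extracted Affymetrix Wheat GeneChip images with MAS 5.0 and normalized and summarized the probes by RMA (background correction, quantile normalization, probeset summaries) in GeneSpring, whose version is not given. They were used without further scaling. Groups came from the sample labels. The treatment text lists 28 days where the duration tags give 21, and 21 was used. Of 61290 probesets, 111 controls were left out. Detection calls were not used here. A limit of 5.15 on the highest group mean was set so that as many probesets were kept as the methods state present, and 7745 cross-hybridizing ones, named _x_at or _s_at, were removed, which left 31543 (51.6%).

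For each probeset 32 group means were fitted over 96 arrays in limma 3.58.1 under R 4.3.3, with Benjamini-Hochberg adjustment over all probesets tested and calls at an adjusted p under 0.01 and 2-fold. In simulated arrays for winter Norstar, 2 against 0 days, over the 31543 probesets, 94% of differences of 1.5 (log2) and 100% of those of 3 were called, with 3 false calls. The number of arrays limits the precision, and p-values measure the spread between pooled samples of one experiment.

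The members and lists were chosen with earlier results of these data known. Lists came from 1550 descriptions of probesets that the study selected on these arrays. The text names both members, their relatives and the glycine-rich class, up to 3 called list members with the largest change in each direction of a comparison, the 5 probesets most like each member, and the lipid transfer probesets with the highest and lowest likeness. Others are said to be named after their values were seen. Alternatives varied the brightness limit, name filter, scaling, moderation, array weights, blocks, arrays and size threshold. Sequences of the members are not shown.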

Additional observations from a re-analysis of the deposited data

Results flagged for a closer look

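Ta.13239.1.S1_at moved in opposite directions in different lines over 2 intervals, with every array of one time above or below every array of the other in each line named. From 2 to 21 days its mean moved by 0.57 in winter Norstar, by -0.83 in spring Norstar and by -1.01 in spring Manitou, so winter Norstar differed from them by 1.40 and 1.58 on the log2 scale. From 21 to 70 days it moved by -0.96 in winter Norstar and -0.88 in winter Manitou, and by 0.88 in spring Norstar and 2.11 in spring Manitou. Winter Norstar minus spring Norstar was -1.84 and winter Norstar minus spring Manitou -3.07, while spring Norstar minus winter Manitou was 1.75 and winter Manitou minus spring Manitou -2.98. These differences were not tested, because the probeset had been selected on the interaction of line and day over the same arrays. Between 2 and 21 days 18.5% of all probesets tested were higher without overlap in winter Norstar, and 19.9% and 15.5% were lower in spring Norstar and spring Manitou. Between 21 and 70 days 25% (winter Norstar) and 30.8% (winter Manitou) of all probesets tested were lower without overlap, and 31.6% (spring Norstar) and 29.5% (spring Manitou) were higher.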

How the results depend on the processing

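The 6 differences of the members (Ta.20519.1.S1_at at 21 against 0 days in the Norstar lines, Ta.13239.1.S1_at at 2 against 0 days in each line) were each refitted under the same alternative settings. In all 42 pairs of a difference and a setting they moved by less than the spread between replicates. Without 1 replicate they ran from 5.36 to 5.78 (winter Norstar) and 3.86 to 4.25 (spring Norstar) for Ta.20519.1.S1_at, and for Ta.13239.1.S1_at from 4.47 to 4.84 (winter Norstar), 4.66 to 4.84 (spring Norstar), 4.37 to 4.42 (winter Manitou) and 3.57 to 3.83 (spring Manitou). Of 224 counts of called cell wall probesets under alternatives, 197 stayed within 1.5 times the main count and 27 did not. At any size the counts in winter Norstar, spring Norstar, winter Manitou and spring Manitou were 18, 16, 18 and 17 at 2 against 0 days, and 15 and 14 in the Norstar lines at 21 against 2 days. At 21 days they were then 27 (winter Norstar against winter Manitou), 11 (spring Norstar against spring Manitou), 22 (winter against spring Norstar) and 6 (winter against spring Manitou). Among the 20000 brightest probesets, which hold fewer of the list, limma called 3 in spring Norstar at 2 against 0 days, 4, 5 and 6 in winter Norstar, winter Manitou and spring Manitou at 21 against 2 days, 0 in each Norstar line at 35 against 21 days (10 and 14 had an unadjusted p under 0.05 among the 57), and 6 for winter Norstar against winter Manitou. Array quality weights gave 10 in spring Norstar at 2 against 0 days, 2 in winter and 1 in spring Manitou at 35 against 21 days, and 4 for winter against spring Manitou, and a fit of the compared lines alone gave 2 in winter Manitou at 35 against 21 days. The cause was not tested.

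Without 1 replicate the counts ran from 7 to 12 in winter Norstar, 5 to 11 in spring Norstar (11 without replicate 2), and 6 to 9 and 5 to 6 in winter and spring Manitou at 2 against 0 days. At 21 against 2 days they ran from 8 to 11, 6 to 9, 4 to 7 (4 without replicate 1) and 6 to 8 (6 without replicate 1 or 3) in that order of lines. At 35 against 21 days they were 1 in each Norstar line, 0 to 1 in winter Manitou (0 without replicate 1) and 0 in spring Manitou. At 21 days they ran from 10 to 12, 5 to 6, 10 to 13 and 2 to 3 in the order above. Deviations from the group means of same-numbered samples of other lines correlated at 0.32 to 0.75 at 0 days (mean 0.545) and at -0.12 to 0.63 on the same day later (mean 0.169, against -0.105 for other numbers), and those of the same line on other days at -0.35 to 0.52. All 3 pairs were over 0.1 in 2 of the comparisons counted, spring Norstar against spring Manitou at 21 days (0.229 to 0.396) and 35 against 21 days in spring Manitou (0.165 to 0.285). The block did not change the counts of these 2. No count compared lines at 0 days, and untreated levels of the lines are set side by side above without a test. The samples are not known to share more than a number. With replicate number as a block the counts moved from 13 to 14 for winter against spring Norstar and from 2 to 3 for winter against spring Manitou, and the other counts and the member differences, 5.59 and 4.06 for Ta.20519.1.S1_at and 4.63, 4.75, 4.40 and 3.72 for Ta.13239.1.S1_at, were the same. Signals below 5.15 limit what can be said of Ta.20519.1.S1_at in the Manitou lines and of both members in untreated crowns.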
